A study of Arabidopsis thaliana with 18 samples.

Results

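The genes described here are those of the mitochondrial genome of Arabidopsis thaliana, counted in whole seedlings of the wild type and of 2 aff1 lines with and without auxin. A gene was a member if its row in the count table had an identifier beginning with ATMG and at least 10 counts summed over the 18 libraries. Of 28278 rows, 146 carried such an identifier, and 49 of these were members. Of the other 97 rows, 18 had 1 to 9 counts and 79 had none. At the edge of the rule, ATMG01410 had 10 counts, ATMG00970 had 11, and ATMG01320 and ATMG01020 had 13 each, while ATMG01280 had 8 and ATMG00570 and ATMG01260 had 7 each. All 146 rows held 4465717 counts, of which 64 lay in rows below the threshold.

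The study examined whether AFF1, the F-box protein AUXIN RESPONSE FACTOR F-BOX1, sets the transcriptional response to auxin. Wild-type (Wt, accession Col-0), aff1-1 and aff1-3 seedlings were 4 d old when they were treated for 2 h, either with the solvent ethanol (mock) or with IAA (indole-3-acetic acid, a natural auxin), whose dose is 10 μM in the sample titles (the protocol text in the labels gives the unit as mM). The 3 genotypes and 2 treatments made 6 groups of 3 libraries. The aff1-1 line carries a chemically induced point mutation, and the other line, Salk_083453, an insertion allele that the labels call aff1-2 and the study aff1-3, the name used here. Each genotype was thus represented by a single line. Nothing in the labels says that replicates came from separate sowings, so p-values measure the spread between these samples, which may be technical.

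Plant mitochondria keep a small genome that encodes part of the respiratory chain and of ATP synthase, the cytochrome c maturation proteins, some ribosomal proteins, and their own ribosomal and transfer RNAs. Most mitochondrial proteins are encoded in the nucleus and imported. In Arabidopsis a long copy of the mitochondrial genome also lies in chromosome 2, so a short read from a mitochondrial transcript can match at both places. RefSeq's TAIR10.1 annotation of the mitochondrial chromosome lists 38 protein-coding gene entries and 3 ribosomal RNA genes (rrn26, rrn18 and rrn5), but it does not use the ATMG identifiers of the table. The members are therefore given by identifier, with a description only where the annotation of chromosome 2 names that identifier. Lengths are not given, so that levels are not compared between members. ATMG00020, ATMG01390 and ATMG01380 are the exception, since the gene list used here marks them as ribosomal RNA.

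The chromosome 2 copy limits the mitochondrial positions to which a read can be assigned uniquely. The table holds uniquely aligned reads of 50 bases, and 70.4% of all 50-base windows of the TAIR10.1 mitochondrial chromosome were also found, letter for letter on either strand, on chromosome 2. On chromosome 2, 99.9% of the matching windows lay in chr2:3187162-3984908. Of the mitochondrial windows 8.66% occurred more than once on the mitochondrial chromosome itself, some of them also on chromosome 2, and 28.9% occurred nowhere else. The deposited counts were made on TAIR10, whose mitochondrial sequence may differ from that of TAIR10.1, so these shares describe the reference and not the authors' alignment.

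To show what a read could and could not separate, 3 stretches of 50 bases are given in the 5′ to 3′ direction from RefSeq TAIR10.1. The first is the start of the coding sequence of AT2G07687 (chr2:3312602-3312651, minus strand), annotated as matching ATMG00730, cytochrome c oxidase subunit 3, and it was found unchanged at 1 place on the mitochondrial chromosome. The second lies in the coding sequence of AT2G07715 (chr2:3411961-3412010, plus strand), the annotated match of the member ATMG00560, and the third is its counterpart on the mitochondrial chromosome. The capital marks the single base at which the latter pair differ.
AT2G07687: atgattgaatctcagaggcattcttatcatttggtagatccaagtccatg
AT2G07715: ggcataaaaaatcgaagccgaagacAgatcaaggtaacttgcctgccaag
mitochondrial counterpart of AT2G07715: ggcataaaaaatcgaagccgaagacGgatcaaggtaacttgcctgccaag
ATMG00730 had 1 count over the 18 libraries and AT2G07687 had 11. ATMG00560, described as a nucleic acid-binding protein with an OB-fold, had 177 counts and AT2G07715 had 72.

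The annotation names a counterpart on chromosome 2 for 53 of the 146 identifiers, at 55 loci. Of these 53 identifiers, 6 were members and 34 had no count, and together they held 399 counts. Of the 93 identifiers with no such counterpart, 43 were members and 45 had no count. Across the 55 loci the median share of 50-base windows also present on the mitochondrial chromosome was 99.1%, and 27 loci matched over their whole length. The counts of the rows in the order of their identifiers are plotted with the identifiers that have a counterpart marked.

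**Figure D1:**
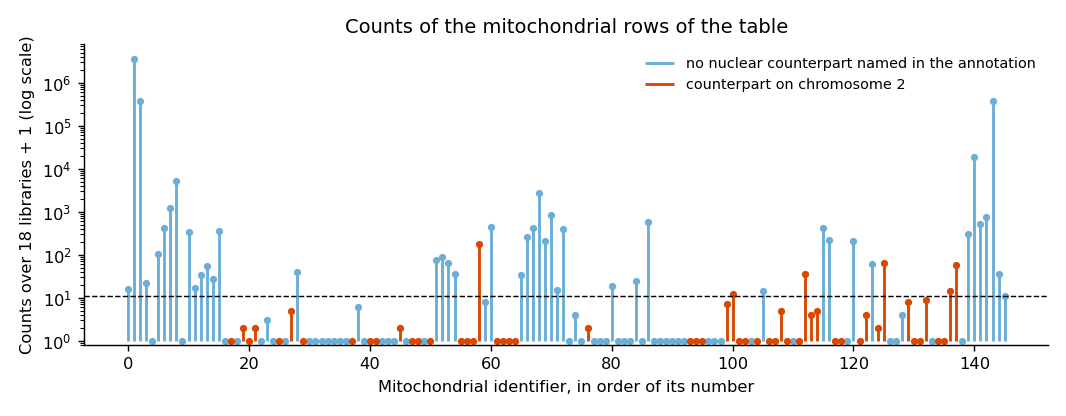
Counts summed over the 18 libraries plus 1 (log scale, vertical axis) for the 146 mitochondrial rows, ordered by identifier number (horizontal axis), with the 53 identifiers that have an annotated counterpart on chromosome 2 in orange and the other 93 in blue. The dashed line is the threshold of 10 counts, and 6 orange and 43 blue rows reach it.

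Core respiratory genes were among the rows with few or no counts. ATMG00410 (ATPase subunit 6-1), ATMG01080 (F0-ATPase subunit 9), ATMG00990 (NADH dehydrogenase 3) and ATMG01275 (NADH dehydrogenase 1A) had 0 counts in all 18 libraries, and so had ATMG00290 and ATMG01270, which are annotated as mitochondrial ribosomal proteins S4 and S7. ATMG00220 (apocytochrome b) had 1 count and ATMG01190 (ATP synthase subunit 1) had 3. Apocytochrome b is the core of respiratory complex III, and subunit 1 is the alpha subunit of the mitochondrial ATP synthase. For such rows a loss of reads with several matches and a low abundance of the transcript cannot be told apart. In the RefSeq annotation, 26 of 37 protein-coding entries of at least 50 bases had under 10% of their windows unique, 15 of them 0%, whereas atp4, ccmB, cox1, nad4L and nad9 were unique throughout, as were rrn26 and rrn5, and rrn18 over 99.6% of its windows.

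The counts of the members were held by few rows. ATMG00020 had 3673050 counts, which was 82.3% of the 4465653 counts of all members. ATMG01390 with 382375 and ATMG00030 with 374923 followed, and these 3 together made up 99.2%. ATMG01360 had 18582 counts and ATMG00090 had 5069, and the 44 members after these 5 held 11654 counts in all. Of the 49 members, 11 had more than 500 counts, 14 had 100 to 500 and 24 had fewer than 100. In each library 39 to 45 members had at least 1 count, and 29 members were counted in all 18.

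The libraries held between 12610301 and 36102396 counts. Photosynthetic shoot markers and root markers were present throughout, and the 6 flower and pollen markers summed to between 0.306 and 1.19 CPM (the count of a row divided by the total of its library, times 1000000). The 7 root markers summed to 3644 to 4410 CPM in the Wt mock libraries, 2722 to 2967 in those of aff1-1 and 1981 to 2661 in those of aff1-3, but 1 gene, BGLU23, made up most of the sum, at 3174 to 4098, 2333 to 2539 and 1704 to 2242 CPM. The other 6 summed to 313 to 470, 389 to 437 and 277 to 419 CPM, which overlapped. Of the 7 genes, 2 (BGLU23 and CASP5) lay below all Wt mock libraries in every aff1-1 mock library and 5 (these with TIP2;3, MRN1 and THAS1) in every aff1-3 mock library. The same count was not made over all genes, so whether these counts are unusual is not known. CASP5 and MRN1 reached at most 2.18 and 0.863 CPM in any library. The part of the 7 genes in the results below was not tested, and in whole seedlings fewer cells of a type and less RNA per cell cannot be told apart. The AFF1 row was at 0.0873 to 0.252 CPM in Wt mock and 3.76 to 5.20 CPM in aff1-3 mock, so it separated the insertion line from Wt, and it does not check the point mutation. The second mock library of aff1-3 stood apart in its organellar share, and each result that rests on it is given with and without it.

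Mitochondrial members took between 0.646% and 1.87% of the counts of a library. Their share of all counts was 0.907%, 0.646% and 0.811% in the Wt mock libraries and 1.01%, 0.916% and 0.931% in Wt with IAA. In aff1-1 it was 1.27%, 1.20% and 1.16% under mock and 0.953%, 0.889% and 1.14% with IAA. In aff1-3 it was 1.07%, 1.87% and 0.952% under mock and 1.03%, 1.19% and 0.914% with IAA. All 6 mock libraries of the mutants lay above all 3 of Wt, whereas with IAA the groups overlapped. Counting error was small beside these differences, with a Wilson 95% interval of 1.87% to 1.88% for the highest library, and such intervals cover counting error only.

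**Figure D2:**
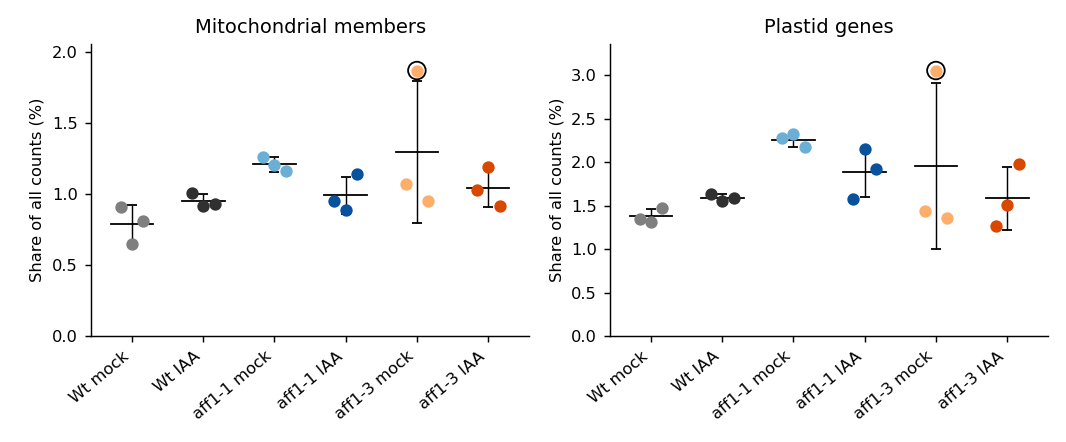
Share of all counts in percent (vertical axes) taken by the 49 mitochondrial members, left, and by the plastid genes, right, in each group (horizontal axes), with points for libraries, horizontal lines for means and bars for the SD of 3 libraries. The circled library, the second aff1-3 mock replicate, is highest in both panels, at 1.87% and 3.06%.

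The share was 1.27-fold higher in aff1-1 than in Wt over both treatments (exact permutation of genotype labels within treatment, two-sided p = 0.04) and 1.32-fold higher in aff1-3 (exact permutation p = 0.025). Adjusted over the 3 share tests, both p-values were 0.06 and missed the threshold of 0.05. Within mock alone the shares were 1.55-fold and 1.59-fold those of Wt, each at p = 0.1, the smallest exact permutation p that 3 against 3 libraries allow. Within IAA alone the folds were 1.04 (exact permutation p = 0.8) and 1.09 (p = 0.4).

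The differences were smaller and less certain without 3 of the rows, which the gene list used here marks as ribosomal RNA. The RefSeq annotation, which lacks these identifiers, could not check this. When ATMG00020, ATMG01390 and ATMG01380 were left out of the members, which removed 90.8% of their counts, the log2 differences from Wt over both treatments fell to 0.20 in aff1-1 (exact permutation p = 0.51) and 0.28 in aff1-3 (p = 0.335). Most of what remained was ATMG00030, with 374923 counts, where all members outside the 3 with most counts held 35305. These values therefore describe mainly that row and not the other members. Without the second aff1-3 mock library the log2 difference of aff1-3 was 0.25 instead of 0.40 (exact permutation p = 0.065). The unadjusted p also rose above 0.05 for aff1-3 without any of the Wt mock libraries or the second aff1-3 IAA library (differences of 0.33 to 0.45, exact permutation p of up to 0.095), and for aff1-1 without any of its mock libraries or the third of its IAA libraries (0.29 to 0.36, p of up to 0.075). Other organellar and ribosomal counts were higher in all aff1-1 mock libraries and in 1 aff1-3 mock library. Plastid genes took 1.32% to 1.47% of counts in Wt mock, 2.17% to 2.33% in aff1-1 mock and 1.44%, 3.06% and 1.36% in aff1-3 mock. The 4 nuclear ribosomal RNA genes took 0.0146% to 0.0196% in Wt mock, 0.0266% to 0.0326% in aff1-1 mock and 0.0196%, 0.0457% and 0.0172% in aff1-3 mock. The first and the third aff1-3 mock libraries were thus near or within the Wt mock range in both, while their mitochondrial shares were above it. The part of either in the mitochondrial difference was not tested.

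IAA did not move the share in a common direction. Averaged over the genotypes the share with IAA was 0.941-fold that with mock (exact permutation of treatment labels within genotype, two-sided p = 0.552). In Wt it was 1.22-fold higher with IAA, and the libraries did not overlap. In aff1-1 it was 0.817-fold, again without overlap, and in aff1-3 it was 0.836-fold with overlap. The difference between these effects in aff1-1 and Wt was -0.58 on the log2 scale (exact permutation p = 0.005, the smallest possible here), a test chosen after the shares had been seen. Treatment labels were permuted within each genotype, so this p refers to no IAA effect in either genotype and not to equal effects. With no overlap in either genotype and opposite directions, that p had to be the smallest. Without ATMG00020, ATMG01390 and ATMG01380, which left mostly counts of ATMG00030, the difference was -0.69 (exact permutation p = 0.265). The plastid share changed with IAA by 0.21 in Wt and -0.27 in aff1-1 on the log2 scale, and the nuclear ribosomal RNA share by 0.49 and -0.47, and their part was not tested.

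Single members were tested with edgeR's quasi-likelihood test together with all genes that passed a filter on low counts, 19383 in all, and called at a Benjamini-Hochberg adjusted p below 0.01. Of the 49 members, 19 passed the filter, which asked for more than 1 CPM in at least 2 of the 3 libraries of a group, and 30 did not. ATMG01380, with 748 counts, passed it, and ATMG00640, with 253, was the member with most counts that did not. Of the 19, 10 passed in all 6 groups, 7 in 2 to 5 groups, and 2, ATMG00110 and ATMG00690, through aff1-3 mock alone. ATMG01350 passed only through the mock groups of both mutants. Such members had to be high in those groups, so counts and medians over the 19 are descriptions of the tested members and do not stand for all 49.

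The members varied more between replicates than most genes. Their biological coefficient of variation, the replicate spread in edgeR beyond counting error, was 0.159 for ATMG00020, 0.330 for ATMG01390, 0.283 for ATMG00030 and 0.283 for ATMG01360, against a median of 0.111 over all genes tested. ATMG01390 lay at the percentile 99.5 of all genes in this spread. The test therefore had less power for these rows than their large counts would give.

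No member was called in any IAA comparison. In Wt, 0 of 19 members were called by edgeR, where 9.66% of all genes were called, and 2 had an unadjusted p below 0.05, as had 27.8% of all genes. In aff1-1 0 of 19 were called against 4.87% of all genes, with 0 members and 18.5% of all genes at the unadjusted level, and in aff1-3 0 of 19 against 4.95%, with 2 members and 20.0% of all genes at that level. DESeq2 and limma also called 0 members in each of these comparisons. The median log2 fold change of the 19 was -0.01 in Wt, -0.18 in aff1-1 and -0.38 in aff1-3, where the median over all genes was at most 0.01 from 0. Without the second aff1-3 mock library the median in aff1-3 was -0.04.

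ATMG01390 had the smallest p of the members for IAA in Wt. It was at 788, 240 and 523 CPM under mock and at 1235, 996 and 1096 CPM with IAA, with no overlap between the groups. The fold change was 2.11 (log2 1.08 ± 0.39 SE, edgeR adjusted p = 0.0691). In aff1-1 it was at 2000, 848 and 1076 CPM under mock and 827, 612 and 961 CPM with IAA, and these overlapped. The interaction of IAA with the aff1-1 genotype was -1.74 ± 0.55 on the log2 scale (edgeR adjusted p = 0.217).

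ATMG01360 followed ATMG01390 closely through the libraries. Under mock it was at 40.3, 16.8 and 32.0 CPM in Wt and 91.7, 43.1 and 46.1 CPM in aff1-1, and with IAA at 48.5, 49.7 and 60.8 CPM in Wt. Over all 18 libraries ATMG01390 ranged 8.33-fold, from 240 to 2000 CPM. For every 100 counts of ATMG01390 there were between 3.93 and 6.99 of ATMG01360, a 1.78-fold range. Among the 253 pairs of the 23 members with at least 180 counts, this pair had the highest correlation of deviations from group means (r = 0.97 over 18 libraries that share these totals), against a median r of 0.21, and ATMG00090 with ATMG01380 came next at 0.84. For every 100 counts of ATMG00020 there were between 7.04 and 21.3 of ATMG00030, a 3.03-fold range. The pairs were picked after their values were seen.

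**Figure D3:**
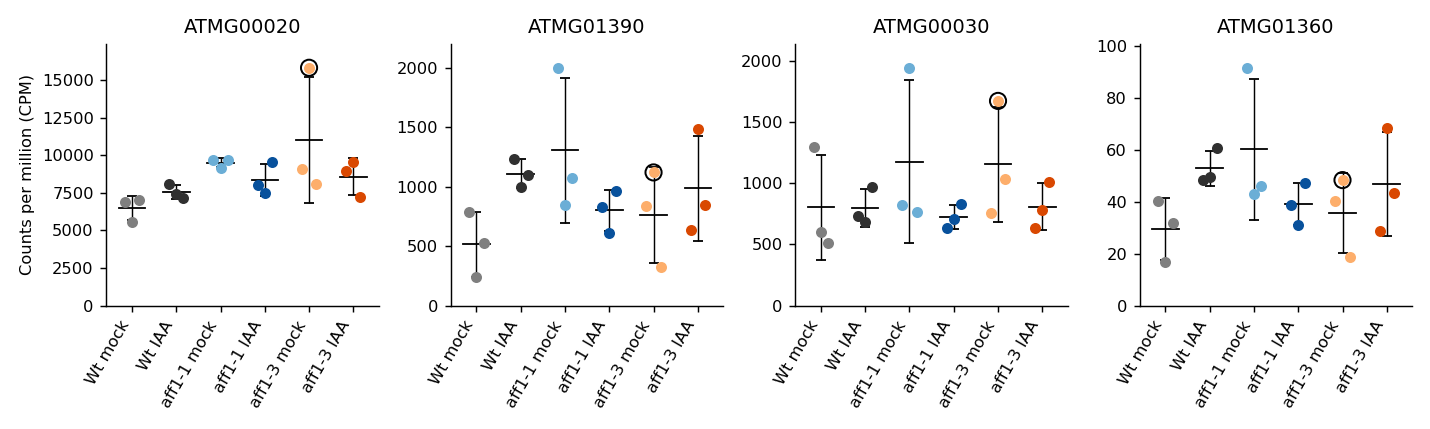
CPM (vertical axes, each from 0) of the 4 members with most counts in the 6 groups (horizontal axes), with points for libraries, horizontal lines for means and bars for the SD of 3 libraries. ATMG01390 and ATMG01360 share their highest library, aff1-1 mock 1 at 2000 and 91.7 CPM, whereas ATMG00020 is highest in the circled second aff1-3 mock library.

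The genotype comparison under mock gave the only calls. In aff1-3 2 of 19 members were called, where 6.78% of all genes were called, and 4 had an unadjusted p below 0.05, as had 25.6% of all genes. All 19 had a fold change above 1 (18 with limma), where 49.9% of all genes did by edgeR. The median log2 of the 19 was 0.52 (0.36 with limma). ATMG00110 and ATMG00690 had entered the test through this group alone. ATMG00070, ATMG00160, ATMG00580, ATMG00650, ATMG01120 and ATMG01350 had entered through mutant groups and no Wt group, so their direction was partly built in. By the mean CPM of each group, 43 of all 49 members were higher in aff1-3 mock than in Wt mock and 6 lower, where 42.8% of all 24129 rows with at least 10 counts were higher, and without the second aff1-3 mock library 32 were higher, 16 lower and 1 equal. In aff1-1 mock 34 of the 49 were higher, 14 lower and 1 equal, where 48.6% of the 24129 rows were higher. Of the 30 members not tested, 16 were higher and 13 lower in aff1-1 mock. In aff1-3 mock 24 of these 30 were higher and 6 lower, or 18 and 11 without its second library. In aff1-1 0 of 19 were called by edgeR, where 4.58% of all genes were called. Of the 19, 17 were above 1, where 49.8% of all genes were, with a median of 0.30 on the log2 scale. In that comparison 5 of 19 members had an unadjusted p below 0.05, close to the 23% of all genes that did, and DESeq2 and limma each called 1. The mutants were compared with the same 3 Wt mock libraries.

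ATMG00020 was at 6913, 5573 and 7003 CPM in Wt mock, 9705, 9142 and 9684 in aff1-1 mock, and 9074, 15805 and 8101 in aff1-3 mock. Every mutant mock library was above every Wt mock library. The fold against Wt was 1.77 in aff1-3 (log2 0.82 ± 0.18 SE, edgeR adjusted p = 0.00342), and it was 1.49 in aff1-1 (log2 0.57 ± 0.18, adjusted p = 0.0442), which was not called. Without the second aff1-3 mock library the log2 difference of aff1-3 was 0.44 and the edgeR adjusted p 0.0207, and the call was lost. The same omission gave aff1-1, whose libraries were not touched, an adjusted p of 0.00118 by edgeR. Leaving out Wt mock 1 or Wt mock 2 also ended the aff1-3 call, at edgeR adjusted p = 0.0121 and 0.0227, and limma with sample weights gave 0.0164. Over all 23 alternatives the edgeR, DESeq2 and limma adjusted p was between 0.000592 and 0.0227.

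ATMG01350 was the other member called in aff1-3, and it is a row with few counts, 295 in all. The row was tested only because it was high in the mock groups of both mutants, the groups compared here with Wt. Its folds and p-values carry that selection. It was at 0.349, 0.0841 and 0.277 CPM in Wt mock, 0.493, 1.09 and 1.07 in aff1-1 mock, and 1.01, 1.37 and 0.903 in aff1-3 mock. The mutant groups did not overlap with Wt. The fold was 4.62 in aff1-3 (log2 2.21 ± 0.47 SE, edgeR adjusted p = 0.00284) and 3.66 in aff1-1 (log2 1.87 ± 0.49, adjusted p = 0.0177). The aff1-3 call was lost without its second mock library (log2 2.00, edgeR adjusted p = 0.0134), without Wt mock 2 (1.86, 0.0163), without Wt mock 3 (2.38, 0.012) and with limma (2.10, 0.0152).

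ATMG01390 was the remaining member with an adjusted p below 0.05 in aff1-1 mock, with a fold of 2.58 (log2 1.37 ± 0.40 SE, edgeR adjusted p = 0.0316). In aff1-3 mock it was at 836, 1120 and 328 CPM, which overlapped with Wt, and the fold was 1.54 with a 95% interval of 0.907 to 2.62. ATMG00030 was at 1299, 599 and 515 CPM in Wt mock, 820, 1945 and 762 in aff1-1 mock and 754, 1674 and 1036 in aff1-3 mock. All 3 groups overlapped for it, and its log2 differences of 0.58 ± 0.33 SE in aff1-1 and 0.60 ± 0.33 in aff1-3 were not called (edgeR adjusted p = 0.311 and 0.274).

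Most other tested members were at low levels. ATMG00090 was at 11.7 ± 1.14 CPM in Wt mock, 12.1 ± 2.74 in aff1-1 mock and 15.3 ± 6.77 in aff1-3 mock (SD, n = 3 each). ATMG00660 was at 5.50 ± 1.44, 5.76 ± 1.32 and 8.78 ± 3.59 CPM in the same groups. Their folds in aff1-3 were 1.37 and 1.64, and neither passed the threshold (edgeR adjusted p = 0.266 and 0.0782). The second library of the aff1-3 group was the highest of all 18 for both.

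With IAA the members were closer between the genotypes. In aff1-1 0 of 19 members were called by edgeR against 6.17% of all genes, and in aff1-3 0 of 19 against 4.72%, with 0 members at an unadjusted p below 0.05 in both (28.3% and 21.3% of all genes) and 0 called by DESeq2 or limma. ATMG00020 was at 8062, 7389 and 7142 CPM in Wt, at 8000, 7496 and 9511 CPM in aff1-1 and at 8976, 9525 and 7191 CPM in aff1-3. The fold was 1.18 in both mutants, with a log2 SE of 0.18 and edgeR adjusted p-values of 0.41 and 0.495. Members with the smallest p were ATMG00580 in aff1-1 (fold 1.43, edgeR adjusted p = 0.224) and ATMG01120 in aff1-3 (fold 1.59, adjusted p = 0.326). In the tests of whether the IAA effect differed from that in Wt, 0 of 19 members were called in aff1-1 against 0.0722% of all genes, and 0 of 19 in aff1-3 against 0.0877%, with 2 members at the unadjusted level in each (12.2% and 10.5% of all genes) and 0 called by DESeq2 or limma.

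**Figure D4:**
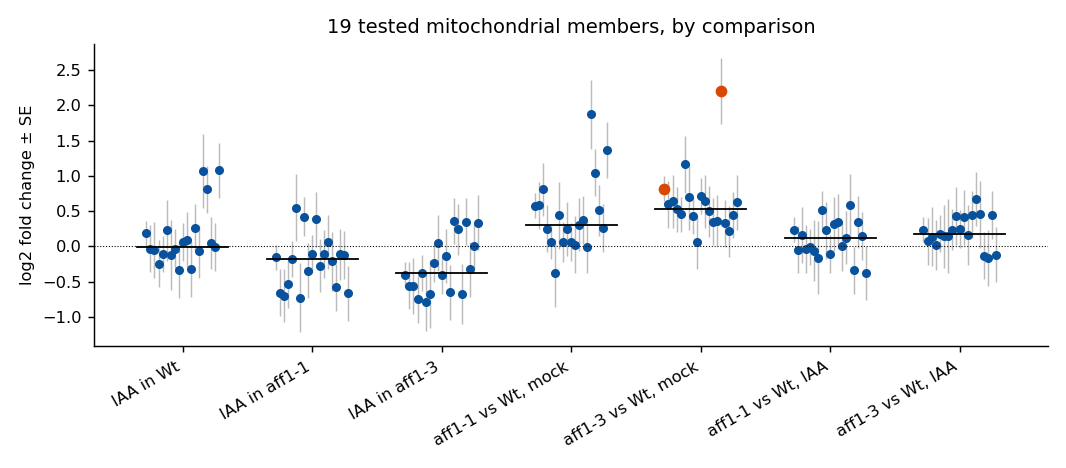
Log2 fold change with its SE (vertical axis) of the 19 tested members in 7 comparisons (horizontal axis), in the order of their identifiers within each, with a black line at the median and called members in orange. In aff1-3 against Wt under mock all 19 points lie above 0 (18 with limma) with a median of 0.52, where 49.9% of all genes were above 0. Among the 19 are ATMG00110 and ATMG00690, which were tested only because they were high in that group. The 2 called members are ATMG00020 and ATMG01350, and ATMG01350 was tested only because it was high in the mock groups of both mutants.

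The second mock library of aff1-3 was looked at on its own. It had 23411425 counts, within the range of the others, and the highest mitochondrial share, 1.87%, where the other 17 libraries lay between 0.646% and 1.27%. Its mitochondrial share was 1.85 times the mean of the other 2 libraries of its group. The plastid share was 2.18 times that mean and the share of the 4 nuclear ribosomal RNA genes 2.49 times. Of all 18 libraries it had the highest plastid and nuclear ribosomal RNA shares and the lowest level of the root marker BGLU23, 1704 CPM. The root markers BGLU22, at 202 CPM, and MRN1, at 0.0427 CPM, were second lowest. CASP1, TIP2;3, CASP5 and THAS1 ranked 4, 8, 10 and 9 from the lowest. The shoot markers summed to 92636 CPM, where the other 17 libraries lay between 78714 and 90535. The part of these markers was not tested.

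**Figure D5:**
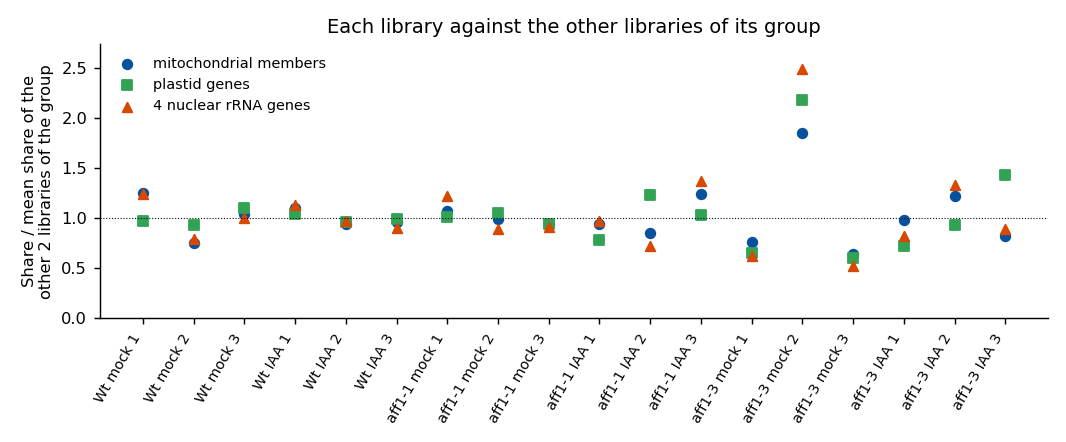
Ratio of each library's share of counts to the mean share of the other 2 libraries of its group (vertical axis) for mitochondrial members, plastid genes and 4 nuclear ribosomal RNA genes, by library (horizontal axis). The second aff1-3 mock library stands at 1.85, 2.18 and 2.49, above every other library in all 3.

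Most but not all members were higher in this library than in the other 2 of its group. Of all 49, 35 were above the mean of the other 2 libraries, 13 below and 1 equal, with a median ratio of 1.65. Of the 10 members with more than 500 counts in the other 17 libraries, a choice that did not use this library, 9 were above, with ratios of 1.64 to 2.82, and ATMG00830 was below, at 1.03 CPM against 1.82 and 1.3 (it was named after its values were seen). The median of the 10 was 1.86. Among these 10 ATMG00080 had the highest ratio, at 6.88 CPM against 2.71 and 2.17, followed by ATMG01380 at 3.33 against 1.32 and 1.48. The lowest above 1 was that of ATMG01360, at 48.4 CPM against 40.4 and 18.6. The ratios of ATMG00020 and ATMG00030 were 1.84 and 1.87, close to the median.

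For 9 of these 10 members the share of the mitochondrial counts in this library was within the range of the other 17. ATMG00020 held 84.4%, where the others ranged from 76.0% to 87.1%. The exception, ATMG00830, held 0.00548%, below the 0.00857% to 0.0208% of the others. The members without ATMG00020, ATMG01390 and ATMG01380 were raised 1.86-fold in sum and these 3 rows 1.85-fold. The first value rests mostly on ATMG00030, whose own ratio was 1.87. The 39 members outside these 10 had a summed ratio of 1.46, with 26 above, 12 below and 1 equal. All 90 plastid genes with at least 50 counts in this library were also higher, with a median ratio of 2.06. Of 16768 nuclear genes 42.5% were higher. The cut used this library itself, so genes that were low in it were less likely to be included. Of the 19 tested members, 9 had their highest CPM of all 18 libraries in this library. Among these 9 were ATMG00110 and ATMG00690, which passed the filter through aff1-3 mock alone, and ATMG01350, which needed the mutant mock groups. The same count was not made over all genes. Without this library, 15 of 18 tested members were above 1 in aff1-3 against Wt under mock instead of all 19. Their median log2 fold change was 0.27. By edgeR 0 were called, where 5.31% of all genes were called, and 2 had an unadjusted p below 0.05.

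Nuclear genes for mitochondrial proteins were examined beside the members. By edgeR 0 of the 18 listed nuclear subunits of the respiratory chain and ATP synthase were called in each of the 9 comparisons, with 0 to 4 at an unadjusted p below 0.05, where between 0.0722% and 9.66% of all genes were called and 10.5% to 28.3% were at that level, and their median log2 fold change was between -0.08 and 0.03. DESeq2 called 1 and limma 2 of them in aff1-1 against Wt with IAA, and limma 1 in aff1-3 against Wt with IAA. Of the 13 listed genes for mitochondrial transcription and RNA processing, 12 were tested, and 1 was called in 1 comparison. This was NFD1, a mitochondrial ribosomal protein gene, with a log2 difference of -0.43 between aff1-1 and Wt, both with IAA (± 0.11 SE, edgeR adjusted p = 0.00891). That call was lost in 13 of 24 alternatives, with an adjusted p of up to 0.0587 by edgeR. For IAA in Wt edgeR called 0 of these 12 genes, with 6 at an unadjusted p below 0.05, whereas DESeq2 called 1 and limma 4. Of all genes 9.66% were called by edgeR in that comparison and 27.8% had an unadjusted p below 0.05.

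Alternative respiration carries electrons to oxygen without passing through all of the proton-pumping complexes. Of 12 listed genes for it 8 were tested. AOX1A, the main alternative oxidase, was at 37.4 to 41.4 CPM in Wt mock, 49.6 to 59.4 in aff1-1 mock and 51.0 to 65.5 in aff1-3 mock, with no overlap between Wt and either mutant. It rose by 0.56 ± 0.09 on the log2 scale in aff1-1 and 0.66 ± 0.09 in aff1-3 (edgeR adjusted p = 0.000448 and 3.92e-05). NDA2, an alternative NADH dehydrogenase, was at 8.87 to 10.0 CPM in Wt mock, 13.7 to 15.7 in aff1-1 mock and 14.5 to 17.3 in aff1-3 mock, a rise of 0.67 ± 0.10 and 0.82 ± 0.10 (edgeR adjusted p = 0.000197 and 1.03e-05). Neither gene was highest in the second aff1-3 mock library, where they stood at 51.0 and 14.5 CPM, the lowest of their group. These 4 calls held in all 24 alternatives.

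NDB2, another alternative NADH dehydrogenase, rose by 0.47 ± 0.11 in aff1-1 mock and 0.54 ± 0.11 in aff1-3 mock (edgeR adjusted p = 0.00764 and 0.00141), and the first of these calls was lost in 9 of 24 alternatives and the second in 1, without Wt mock 3. NDB3 fell in aff1-3 mock (log2 fold change -1.403 ± 0.33, edgeR adjusted p = 0.00701) from 1.47 to 1.81 CPM in Wt to 0.470 to 0.686, and that call was lost in 7 of 24 alternatives, among them the removal of any library of its 2 groups. In aff1-1 mock 3 of 8 genes rose and 0 fell, and in aff1-3 mock 3 rose and 1 fell, against 4.58% and 6.78% of all genes. With IAA 2 of 8 were higher than in Wt and 0 lower in each mutant, against 6.17% and 4.72% of all genes. AOX1A was higher by 0.41 in aff1-1 and 0.62 in aff1-3 (edgeR adjusted p = 0.00465 and 0.000115). NDA2 was higher by 0.62 and 0.67 (edgeR adjusted p = 0.000265 and 0.000119). Of these 4 calls, that of AOX1A in aff1-1 was lost in 5 of 24 alternatives.

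In Wt 3 of the 8 rose with IAA, where 9.66% of all genes were called. NDB2 went from 13.2 to 15.4 CPM with mock to 21.2 to 25.1 with IAA (log2 0.65 ± 0.11, edgeR adjusted p = 0.000122), and NDA2 rose by 0.54 ± 0.10 (adjusted p = 0.000569) by edgeR. AOX1A rose by 0.41 ± 0.09 (edgeR adjusted p = 0.00291), a call that was lost without Wt mock 2 or 3 or Wt IAA 2 or 3. In aff1-1 1 of 8 rose, NDA2, where 4.87% of all genes were called. In aff1-3 0 of 8 were called by edgeR, 2 by DESeq2 and 0 by limma, and 3 had an unadjusted p below 0.05, where 4.95% of all genes were called by edgeR and 20.0% were at that level, while the interaction with genotype called 0 of 8 in both lines by all 3 tools (1 and 0 at an unadjusted edgeR p below 0.05), so no difference between genotypes in these effects was shown. Of the root markers, BGLU23 and CASP5 were lower in the mock libraries of both mutants than in those of Wt, and their part in the nuclear differences was not tested.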

How the data were processed

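RNA-seq libraries of 18 whole-seedling samples were analysed, 3 for each of 3 genotypes and 2 treatments. The authors deposited raw counts per gene, the uniquely aligned, unambiguous reads of 50 bases from STAR and featureCounts on TAIR10. Per the labels the libraries were made with the SMARTer kit, and per the study's methods with Ribo-Zero Gold, which removes ribosomal RNA. The strand setting of the counting is not given in the sources used here, so overlapping and antisense genes cannot be told apart.

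The 4 nuclear ribosomal RNA genes were left out of the gene tests. Genes above 1 CPM in 2 or more libraries of any group were tested with edgeR 4.0.16 (quasi-likelihood, TMM, 6 group means, R 4.3.3), with standard errors from the log2 fold change and its F statistic and adjusted p-values over all genes. Shares were tested by exact permutation on the log2 scale. Alternatives were DESeq2 1.42.0, limma 3.58.1 with sample weights, other scalings, filters and gene sets, a replicate block, and each library left out. The alternatives of the nuclear genes and of the IAA effect on the share between genotypes were chosen after seeing the data. The tests were tried on simulated data. The named members were those called, or else the 3 with the smallest p, in each comparison, the 5 with most counts, those at the threshold, and the 5 highest and lowest in the second aff1-3 mock library. The members and lists were chosen with earlier results of these data known.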

Additional observations from a re-analysis of the deposited data

Results flagged for a closer look

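In these libraries the effect of IAA on the mitochondrial share of counts had opposite signs in aff1-1 and Wt. On the log2 scale it was 0.29 in Wt and -0.29 in aff1-1, a difference of -0.58 (exact permutation of treatment labels within genotype, two-sided p = 0.005, the smallest that 400 arrangements allow here, and 0.01 adjusted over both mutants). The 3 IAA libraries lay above the 3 mock libraries in Wt and below them in aff1-1. The test was chosen after the shares had been seen, and this separation made the smallest p certain. The p-values for such differences, here and below, refer to no IAA effect in either genotype and not to equal effects. In aff1-3 the difference from Wt was -0.54 (exact permutation p = 0.125). The plastid share moved the same way, by 0.21 in Wt and -0.27 in aff1-1, and the share of the 4 nuclear ribosomal RNA genes by 0.49 and -0.47, and their part in the mitochondrial difference was not tested. Without ATMG00020, ATMG01390 and ATMG01380, which left mostly counts of ATMG00030, the difference in aff1-1 was -0.69 with an exact permutation p of 0.265.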

How the results depend on the processing

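Counts of members called did not change in 7 of the 9 comparisons. In aff1-1 against Wt under mock the count was 0, and it became 3 at an adjusted p below 0.05 and 1 with DESeq2 or with limma, and 0 to 1 with each library left out. In aff1-3 under mock it was 2, and it became 0 with limma and 0 to 2 with each library left out. Without plastid genes and ATMG00020, ATMG01390 and ATMG01380 it was 1, because that setting removed ATMG00020 itself, while ATMG01350 stayed called. With each library left out, the log2 difference of the share was -0.15 to 0.01 for IAA against mock, where the change of sign to 0.0111 came without the second aff1-3 mock library, 0.27 to 0.40 for aff1-1 and 0.25 to 0.49 for aff1-3 against Wt. Leaving these 3 loci out of the members left mostly counts of ATMG00030 and gave 0.20 and 0.28 for the mutants. Also leaving them, the plastid genes and the 4 nuclear ribosomal RNA genes out of the total gave 0.21 and 0.29 (exact permutation p = 0.505 and 0.33). For the difference between the IAA effects the same settings gave -0.69 and -0.71 in aff1-1, and each library left out gave -0.69 to -0.44 in aff1-1 and -0.74 to -0.25 in aff1-3 (-0.735, exact permutation p = 0.04, without the third aff1-3 mock library). The cause of these changes was not tested.

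Correlations of same-numbered libraries ran from -0.07 to 0.26, and the highest were between mock libraries of Wt and the mutants. Whether replicate numbers pair the libraries is thus not settled. With a replicate block the gene fits called the same number of members in all 9 comparisons, 2 in aff1-3 against Wt under mock, and the share differences of 0.34 in aff1-1 and 0.40 in aff1-3 had exact permutation p-values of 0.125 and 0.0625, against 0.04 and 0.025 without it. The difference of IAA effects in aff1-3, -0.54, then had an exact permutation p of 0.0312. A block allows fewer arrangements, so the smallest possible p is larger than without it. Of 999 checks of named genes, 945 kept their side of the threshold and 0 changed sign. Many of these checks left out a library outside the groups compared, or concerned results that had not been called. Such checks could hardly change, so this total says little about the calls. The low counts of most members limit what could be detected, since 30 of 49 were not tested.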

Other observations

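The 46 chromosome 2 loci in the table that the annotation matches to mitochondrial identifiers held 1070 counts over the 18 libraries, against 399 for the 53 identifiers they match. AT2G07698, matched to ATMG01190 (ATP synthase subunit 1), held 761 of these, where ATMG01190 had 3, and 98.1% of its 50-base windows were also on the TAIR10.1 mitochondrial chromosome. ATMG01090 (ATP synthase 9) had 35 counts and its match AT2G07777 had 0. Of the 133 plastid rows 74.4% reached 10 counts, of the nuclear rows 85.6% and of the mitochondrial rows 33.6%.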
